A study of Mus musculus with 6 samples.

Results

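Genes of integrins, of laminins and of the matrix ligands that integrins bind were examined in mouse embryonic stem cells (mESCs) kept with LIF, with Oncostatin M (OSM) or without a cytokine. Members were chosen by gene symbol alone. They were the integrin alpha and beta genes without the integrin-binding-protein genes, the laminin genes other than Lama1, Lamb1 and Lamc1, and Fn1, Vtn, Spp1, Tnc, Nid1, Nid2 and Hspg2. Of the 28584 gene symbols measured, 38 were members, and 30 of these were among the 18556 genes with enough signal to test. The mESCs came from 1 line derived from C57BL/6 × 129S6 blastocysts and were grown on mitomycin C-inactivated mouse embryonic fibroblast (MEF) feeders with LIF and serum before the media were changed. LIF cells then received basic medium with 1000 U/mL LIF, OSM cells the same medium with 10 ng/mL OSM, and -LIF cells the medium with neither cytokine. All 3 groups had 20% fetal bovine serum, and RNA was taken at P10 from 2 biological replicates in each group, 6 libraries in all. The sources used here do not say whether feeder cells were carried into the later passages.

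Integrins are cell-surface receptors that pair 1 alpha with 1 beta chain and tie the matrix outside the cell to the actin skeleton inside it. The alpha chain largely sets which ligand is bound, so that some receptors take laminins, some collagens, and others proteins with the short peptide motif RGD, such as fibronectin, osteopontin and vitronectin. Laminins are trimers of an alpha, a beta and a gamma chain and form the sheet of the basement membrane, which nidogens and perlecan link to type IV collagen. In the early embryo the epiblast sits on such a membrane, and mESCs attach to laminin and fibronectin through receptors that contain the beta1 chain. LIF and OSM are cytokines that signal through gp130 to Stat3.

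Expression was given as TPM, in which the reads of a gene are divided by its length and scaled to the same total in each library, so that levels can be set side by side between genes. Whole reads recovered from the TPM values came to 20712941 to 28994417 per library. Changes were tested with limma on log2(TPM + 1), a scale on which the change of a gene with a low TPM is understated, and a gene was called where the adjusted p was under 0.05 and the log2 change was at least 1 up or down. With 2 libraries against 2, the p-values rest on this model. The median log2 change of all genes tested was 0.165 for LIF cells and 0.182 for OSM cells against -LIF cells, and 0.008 between OSM cells and LIF cells. Pluripotency markers were present in every group but differed between them, with Pou5f1 at mean levels of 545, 1165 and 1186 TPM, Nr0b1 at 20.2, 316 and 259 TPM and Nanog at 433, 290 and 261 TPM in -LIF cells, LIF cells and OSM cells. Of 8 naive markers, 5 were called higher and 1, Dppa3, lower in both cytokine groups. Markers of other cell types moved with the groups. Of 13 fibroblast markers tested, 11 were called higher in both cytokine groups. Col5a1 went the other way, with mean levels of 42.9, 23.9 and 36.1 TPM in -LIF cells, LIF cells and OSM cells (log2 change -0.82 and -0.24). The summed level of the 14 markers was 97.8 to 103 TPM in -LIF cells, 317 to 321 TPM in LIF cells and 450 to 455 TPM in OSM cells. Fap was at 0 in both -LIF libraries. Of 6 simple epithelium and trophoblast markers, 5 were called lower in both cytokine groups, and their summed level was 2595 to 2609 TPM in -LIF cells, 253 to 274 TPM in LIF cells and 249 to 262 TPM in OSM cells. The part of such cells in the results below was not tested, and in bulk RNA a change in the number of cells of a type cannot be told apart from a change in RNA per cell.

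Against -LIF cells, the members with the largest rises were the matrix ligands Tnc and Spp1, and those with the largest falls were the laminin receptor chain Itga3 and the laminin chain Lamb3. In LIF cells 9 of the 30 members tested were called higher and 2 lower, while 13.3% of all genes tested were called higher and 8.09% lower. Calls of either direction made up 21.4% of all genes tested. With the levels rescaled to a median ratio of 1 between libraries, 5 members were called higher and 2 lower in LIF cells. This rescaling moved the median log2 change of all genes tested in LIF cells from 0.165 to 0.002. The share of all genes called after it is not given here, so the rescaled counts do not set the members apart from other genes. In OSM cells 9 members were called higher and 2 lower, against 14.2% and 7.86% of all genes tested, or 22.0% in either direction. With the adjusted p alone as the criterion, 16 members were higher and 6 lower in LIF cells, where 42.2% and 25.9% of all genes tested were (68.1% in all). By the same criterion 19 members were higher and 5 lower in OSM cells, where 42.9% and 25.4% of all genes tested were (68.3% in all). The median log2 change of the members was 0.421 in LIF cells and 0.503 in OSM cells. Both cytokine groups are compared with the same -LIF libraries, so the comparisons are not independent. Itga5, Itgav, Itga2, Itga11, Spp1, Tnc and Nid1 were called higher in both comparisons, and Itga3 and Lamb3 were called lower in both. The share of all genes called alike in both comparisons was not counted. Itga9 and Itgb7 were called in LIF cells alone, and Itga4 and Lama4 in OSM cells alone, but none of these 4 genes had an adjusted p under 0.05 between OSM cells and LIF cells, where their adjusted p-values were 0.528, 0.263, 0.702 and 0.356. Itga2, Itga4, Itga8, Itga11, Itgam and Lama4 passed the filter of 1 TPM only with libraries of the cytokine groups, whose levels lay above those of -LIF cells, and Itga2b and Itgae through -LIF cells, so the counts of members called depend in part on the filter.

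**Figure D1:**
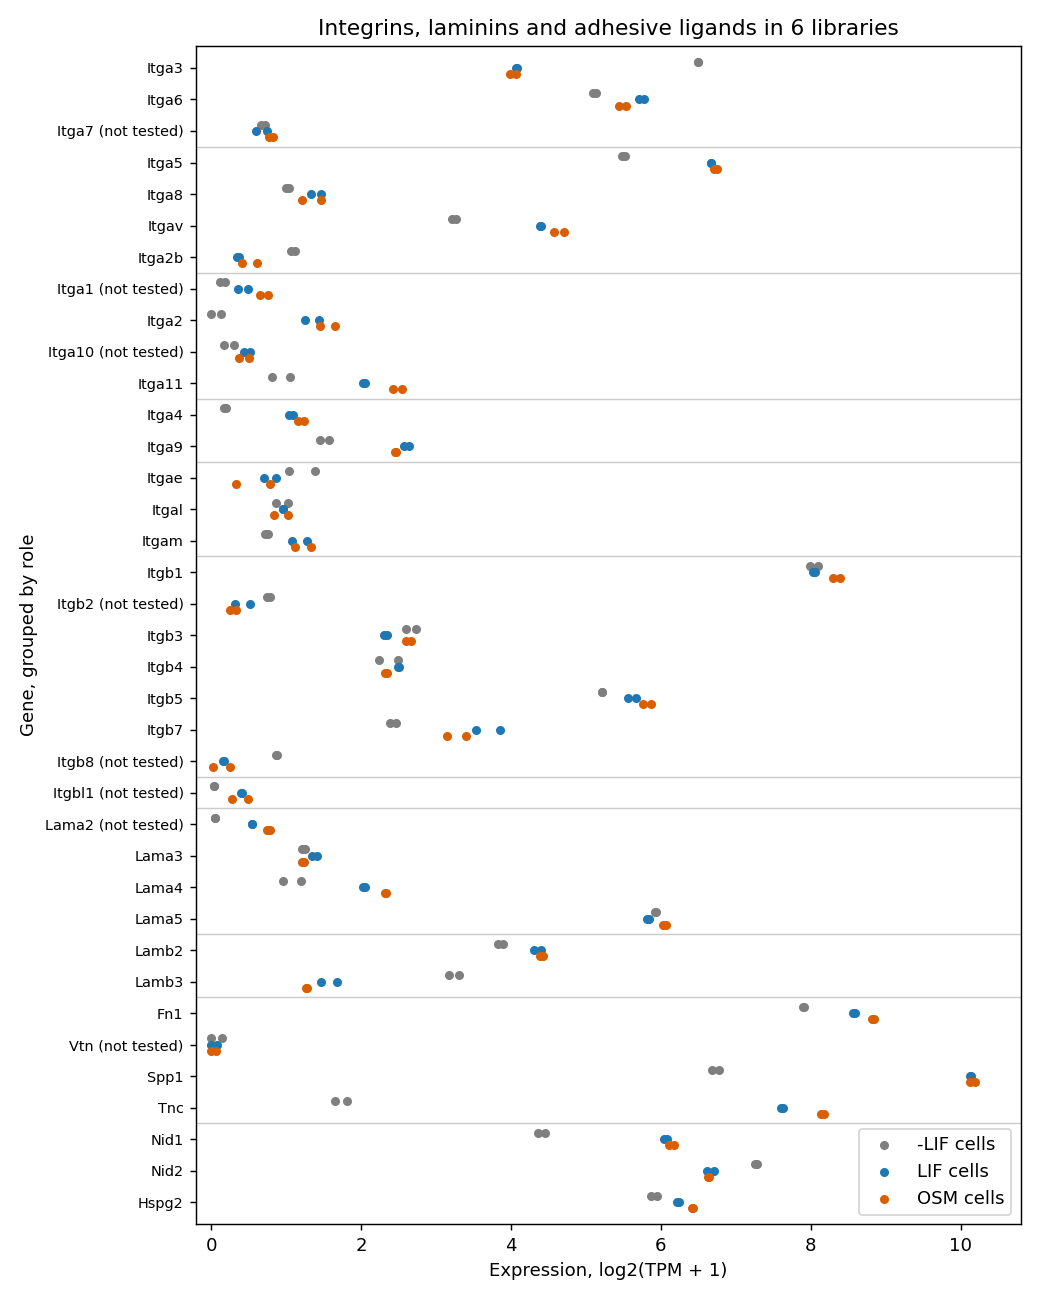
Expression of 37 members in each of the 6 libraries on the log2(TPM + 1) scale (horizontal axis), with 1 point per library and genes grouped by role. Tnc and Spp1 of the cytokine groups lie far to the right of their -LIF points and Itga3 and Lamb3 to the left, while the points of LIF cells and OSM cells lie close together.

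Among the ligands, Tnc changed the most. Tnc encodes tenascin-C, a matrix protein that modulates adhesion and is made by mesenchymal cells during development and repair. It lies on chromosome 4 of GRCm38 from 63959785 to 64047015 and was at 2.51 and 2.14 TPM in -LIF cells, 197 and 194 TPM in LIF cells, and 289 and 280 TPM in OSM cells. The 3 groups did not overlap, and the order of the levels was -LIF cells, LIF cells, OSM cells. The mean level was 84.1-fold higher in LIF cells and 122-fold higher in OSM cells than in -LIF cells, with log2 changes of 5.89 (standard error 0.06, adjusted p = 1.14e-06) and 6.42 (adjusted p = 9.19e-07). The low level in -LIF cells rests on 221 and 155 reads.

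Spp1 encodes osteopontin, a secreted RGD protein. It lies on chromosome 5 from 104435118 to 104441050 and was at 102 and 108 TPM in -LIF cells, 1117 and 1131 TPM in LIF cells, and 1170.0 and 1114 TPM in OSM cells. It was the most abundant of the 38 members in both cytokine groups. The rise was 10.7-fold in LIF cells (log2 change 3.41, standard error 0.04, adjusted p = 1.54e-06) and 10.9-fold in OSM cells (log2 change 3.43, adjusted p = 1.54e-06), and the 2 cytokine groups overlapped. A gene model on the same strand, Gm42793, shares 18.8% of the exon bases of Spp1, and how reads in this stretch were assigned is not given in the sources used here. Fn1 encodes fibronectin, the main RGD ligand of the receptor made of the alpha5 and beta1 chains. Fn1 lies on chromosome 1 from 71585520 to 71653200 and was at 239 and 237 TPM in -LIF cells, 383 and 377 TPM in LIF cells, and 458 and 449 TPM in OSM cells. The 3 groups were again separate. Apol7d, on the opposite strand, shares 292 exon bases with Fn1. Its rise was 1.60-fold in LIF cells (log2 change 0.67, adjusted p = 2.80e-05) and 1.90-fold in OSM cells (log2 change 0.93, adjusted p = 1.09e-05), below the limit of 1 for a call. Vtn, the gene of vitronectin, had at most 2 reads in any library and was not tested. Serum contains fibronectin and vitronectin, which RNA does not measure.

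The 250 bases before the start of Tnc and Spp1 are shown because these genes rose the most, together with those of Itga2, the called member with the next largest change among those whose window was found and holds no annotated exon. The sequences are from RefSeq (build GRCm38.p6), at the first start listed for each gene, and 26 of the 38 members were found in this table. Capitals mark matches on either strand to 5 motifs, for Stat, AP-1 and Tead factors, the GC box and the TATA box, whose letters are given after the sequences.
Tnc, chr4:64047016-64047265, minus strand: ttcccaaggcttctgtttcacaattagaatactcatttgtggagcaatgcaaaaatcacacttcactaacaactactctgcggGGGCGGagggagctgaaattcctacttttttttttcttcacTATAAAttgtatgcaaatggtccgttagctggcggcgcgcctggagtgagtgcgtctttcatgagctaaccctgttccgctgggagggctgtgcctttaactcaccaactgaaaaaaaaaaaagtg
Spp1, chr5:104434861-104435110, plus strand: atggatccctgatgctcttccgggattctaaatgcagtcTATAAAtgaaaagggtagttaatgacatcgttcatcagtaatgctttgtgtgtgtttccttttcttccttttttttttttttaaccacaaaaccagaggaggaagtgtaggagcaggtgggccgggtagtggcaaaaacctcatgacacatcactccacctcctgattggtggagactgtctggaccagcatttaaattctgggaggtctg
Itga2, chr13:114932101-114932350, minus strand: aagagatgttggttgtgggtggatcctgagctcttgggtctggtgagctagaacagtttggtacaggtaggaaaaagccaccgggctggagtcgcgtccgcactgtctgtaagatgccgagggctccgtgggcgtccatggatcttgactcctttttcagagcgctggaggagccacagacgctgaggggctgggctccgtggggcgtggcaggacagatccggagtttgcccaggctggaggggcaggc
Tnc held a match to the GC box beginning 167 bases and to the TATA box beginning 126 bases before its start. Spp1 held a match to the TATA box beginning 211 bases before its start, and Itga2 held none of the 5 motifs. These are matches of letters at any position in the window, and whether they act was not tested. The Stat motif TTCNNNGAA was in 2 of the 26 members found (Itga10 and Lamb2) and in 7.2% of all 27025 promoter windows of this length, a difference not tested. The AP-1 motif TGANTCA was in 0 of 26 members and 6.9% of windows. The Tead motif CATTCC was in 4 members and 12.6% of windows. The GC box GGGCGG was in 11 members and 32.9% of windows. The TATA box TATAAA was in 3 members (Tnc, Spp1 and Vtn) and 13.0% of windows. No motif overlapped another in the sequences shown. GC content was 44.8% for Tnc, 43.6% for Spp1 and 60.8% for Itga2, with a median of 58.0% over the members found and 52.0% over all windows.

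Of the 4 alpha chains that bind RGD ligands, the 2 most abundant, Itga5 and Itgav, were called higher in both cytokine groups, and 0 were called lower. Of all genes tested, 13.3% were called higher and 8.09% lower in LIF cells, and 14.2% and 7.86% in OSM cells. Itga5, the alpha chain of the main fibronectin receptor, lies on chromosome 15 from 103344286 to 103366763 and was at 45.0 and 43.6 TPM in -LIF cells, 100.4 and 100.5 TPM in LIF cells, and 106 and 104 TPM in OSM cells. It was 2.27-fold higher in LIF cells (log2 change 1.16, adjusted p = 1.10e-05) and 2.38-fold higher in OSM cells (log2 change 1.23, adjusted p = 9.00e-06), and after the rescaling by median ratio the log2 change in LIF cells was 0.98, below the limit for a call. Itgav, the alpha chain that pairs with several beta chains to bind vitronectin and other RGD proteins, was at 8.64 and 8.26 TPM in -LIF cells, 20.0 and 20.1 TPM in LIF cells, and 25.1 and 22.9 TPM in OSM cells. No library of the cytokine groups was as low as those of -LIF cells. The log2 change of Itgav was 1.15 in LIF cells (adjusted p = 6.10e-05, and 0.98 after rescaling, where it was not called) and 1.40 in OSM cells (adjusted p = 3.25e-05). Itga2b, which with beta3 forms the fibrinogen receptor of platelets, went the other way at a low level, from 1.09 and 1.16 TPM in -LIF cells to 0.293 and 0.264 TPM in LIF cells and 0.526 and 0.333 TPM in OSM cells. Its log2 change was -0.73 in LIF cells (adjusted p = 0.00914) and -0.57 in OSM cells (adjusted p = 0.0219), and it was called lower in both with a pseudocount of 0.1 and with voom. Itga8 was at 0.992 to 1.75 TPM in all libraries and had adjusted p-values of 0.0624 and 0.0970.

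The alpha chains that bind laminin moved in opposite directions. Itga3, a receptor chain of epithelial cells on laminin, lies on chromosome 11 from 95044474 to 95076801 and was at 88.9 and 89.2 TPM in -LIF cells, 15.9 and 15.7 TPM in LIF cells, and 14.8 and 15.8 TPM in OSM cells. It was 5.64-fold lower in LIF cells (log2 change -2.42, standard error 0.05, adjusted p = 3.88e-06) and 5.81-fold lower in OSM cells (log2 change -2.46, adjusted p = 3.30e-06). Itga6, the laminin receptor chain found on many stem cells, was at 34.1 and 33.3 TPM in -LIF cells, 53.5 and 51.3 TPM in LIF cells, and 45.2 and 42.4 TPM in OSM cells. It rose by 1.56-fold in LIF cells (log2 change 0.62, adjusted p = 0.000214) and by 1.30-fold in OSM cells (log2 change 0.37, adjusted p = 0.00155). Within each library the ratio of Itga3 to Itga6, which does not depend on the scaling of the library, was 2.60 and 2.68 in -LIF cells, 0.297 and 0.306 in LIF cells, and 0.328 and 0.373 in OSM cells. Itga7, a laminin receptor chain of muscle, was at 0.514 to 0.774 TPM and was not tested. The simple epithelium and trophoblast markers were also lower in both cytokine groups, by very different amounts. Krt19, which changed the most, had mean levels of 564, 1.81 and 3.27 TPM in -LIF cells, LIF cells and OSM cells. Epcam, which changed the least, had mean levels of 276, 229 and 209 TPM. A link of these markers to Itga3 was not tested.

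The collagen-binding alpha chains were low in every group, and Itga11 and Itga2 were called higher with either cytokine. Both passed the filter of 1 TPM only with libraries of the cytokine groups, where they were higher. That each tested chain of this role was called higher thus depends in part on the filter. Itga11, a collagen receptor chain of mesenchymal cells, was at 0.757 and 1.07 TPM in -LIF cells, 3.14 and 3.07 TPM in LIF cells, and 4.38 and 4.84 TPM in OSM cells. Its log2 change was 1.11 in LIF cells (adjusted p = 0.000742) and 1.56 in OSM cells (adjusted p = 0.000207), and in LIF cells it was 0.997 after rescaling and 0.99 without -LIF replicate 1, so that the call was lost in both. Itga2, a collagen receptor chain of epithelial cells and platelets, had 0 and 6 reads in -LIF cells, 92 and 110 reads in LIF cells, and 124 and 184 reads in OSM cells. Its level was 1.37 and 1.71 TPM in LIF cells and 1.72 and 2.13 TPM in OSM cells, with log2 changes of 1.28 (adjusted p = 0.00107) and 1.48 (adjusted p = 0.000605). Itga1 and Itga10 stayed at or below 0.697 TPM in every library and were not tested. Itga1 was separate in the 3 groups, at 0.133 and 0.0809 TPM in -LIF cells, 0.401 and 0.274 TPM in LIF cells, and 0.697 and 0.572 TPM in OSM cells, which correspond to 14 to 131 reads. How many of all genes were separate in this way was not counted. A gene model on the same strand, Gm49395, shares 3.7% of the exon bases of Itga1. It had mean levels of 26.9, 19.1 and 22.5 TPM in -LIF cells, LIF cells and OSM cells.

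Itga4 and Itga9 form a pair of related alpha chains that bind fibronectin and tenascin-C, among other ligands. Itga4 was at 0.145 and 0.123 TPM in -LIF cells, 1.12 and 1.05 TPM in LIF cells, and 1.37 and 1.23 TPM in OSM cells. On the TPM scale it was 8.11-fold higher in LIF cells and 9.67-fold higher in OSM cells. On the log2(TPM + 1) scale the change was 0.88 in LIF cells (adjusted p = 0.00283) and 1.02 in OSM cells (adjusted p = 0.00161), and in OSM cells it was 0.96 after rescaling and 0.97 without OSM replicate 1, so that the call was lost in both. Itga4 passed the filter through LIF and OSM cells alone. With a pseudocount of 0.1 the change in LIF cells was 2.34 and was called. Itga9 was at 1.96 and 1.73 TPM in -LIF cells, 5.21 and 4.93 TPM in LIF cells, and 4.50 and 4.47 TPM in OSM cells. Its log2 change was 1.09 in LIF cells (0.96 after rescaling) and 0.95 in OSM cells (1.01 without -LIF replicate 1, 1.24 with a pseudocount of 0.1 and 1.14 with voom, each called), with adjusted p-values of 0.000260 and 0.000439. Of the alpha chains of leukocytes, Itgae, Itgal and Itgam lay between 0.259 and 1.60 TPM in all libraries, and none was called in the limma fit on log2(TPM + 1), while voom on recovered reads called Itgae lower in both comparisons (-1.01, adjusted p = 0.0140, and -1.67, adjusted p = 0.000528). Itgam shares 68.7% of its exon bases with the gene model Gm49368. Of 6 leukocyte markers, Adgre1 and Tyrobp were at 0 in all -LIF and LIF libraries, while Laptm5, called higher in both cytokine groups, had mean levels of 5.55, 98.7 and 93.7 TPM in the 3 groups and Cd68, called lower in both, 40.0, 15.9 and 15.1 TPM. The summed level of this list was 51.6 to 53.5, 121 to 123 and 113 to 119 TPM in -LIF, LIF and OSM cells.

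**Figure D2:**
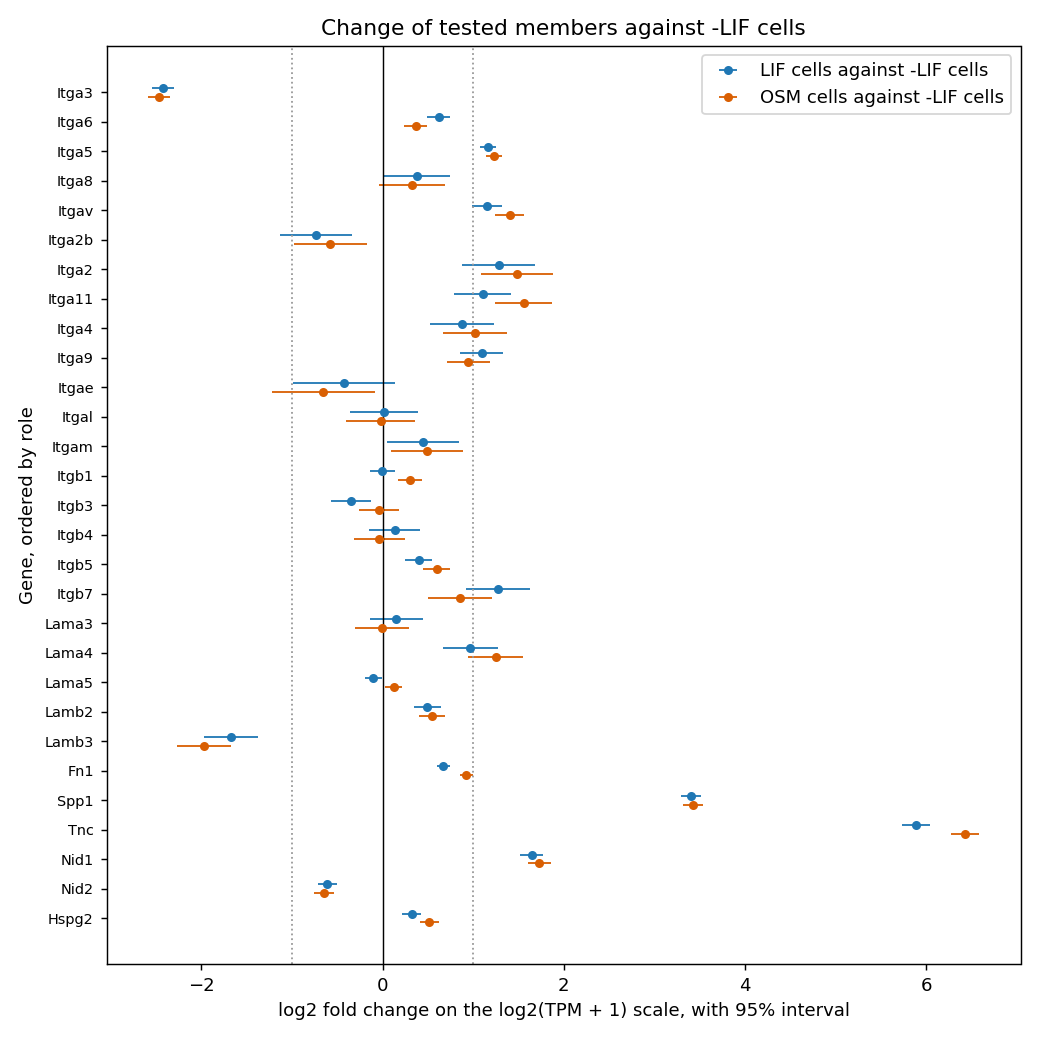
Change of 29 tested members in LIF cells and OSM cells against -LIF cells as log2 change on the log2(TPM + 1) scale (horizontal axis), with bars for the 95% interval from limma and dotted lines at -1 and 1. Tnc lies near 6, Spp1 near 3.4 and Itga3 near -2.4, and the 2 comparisons, which share the -LIF libraries, lie side by side for most genes.

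Of the 5 beta chains tested, 1 was called higher in LIF cells and 0 in OSM cells, beside 13.3% and 14.2% of all genes tested. Itgb1, which pairs with most of the alpha chains above, made up 79.0% to 84.3% of the summed TPM of the 7 beta chains in every library. It was at 253 and 273 TPM in -LIF cells, 264 and 260 TPM in LIF cells, and 335 and 313 TPM in OSM cells. LIF cells and -LIF cells overlapped (log2 change -0.0005, adjusted p = 0.996, 95% interval -0.13 to 0.13), and OSM cells lay above both, with a log2 change of 0.30 against -LIF cells (adjusted p = 0.00392). Itgb5, a partner of the alphav chain, was at 36.3 and 36.1 TPM in -LIF cells, 49.7 and 46.3 TPM in LIF cells, and 57.6 and 53.0 TPM in OSM cells, a log2 change of 0.40 (adjusted p = 0.00220) and 0.60 (adjusted p = 0.000459). Itgb7, known as the partner of alpha4 and alphaE in lymphocytes, was the chain called. It was at 4.21 and 4.50 TPM in -LIF cells, 10.6 and 13.4 TPM in LIF cells, and 7.86 and 9.58 TPM in OSM cells, with log2 changes of 1.28 (adjusted p = 0.000691) and 0.86 (adjusted p = 0.00321). Itgb3, the other partner of alphav in binding vitronectin, was at 5.66 and 5.06 TPM in -LIF cells, 3.92 and 4.06 TPM in LIF cells, and 5.33 and 5.04 TPM in OSM cells, and fell in LIF cells by 0.35 on the log2 scale (adjusted p = 0.0162). Itgb4, the partner of alpha6 in hemidesmosomes, was at 3.71 to 4.69 TPM with overlap between -LIF cells and both other groups (adjusted p = 0.321 and 0.800). Itgb8 and Itgb2 were below 1 TPM in every library and were not tested. Itgb8, which activates latent TGF-beta, was at 0.839 and 0.826 TPM in -LIF cells (105 and 85 reads), 0.125 and 0.110 TPM in LIF cells, and 0.0179 and 0.186 TPM in OSM cells, where the replicates rest on 2 and 25 reads. Itgbl1, a secreted relative of the beta chains, had 1 read in each -LIF library and 11 to 17 reads in the others.

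Among the laminins, Lamb3 was called lower in both comparisons, and Lama4 was called higher in OSM cells. Lamb3 is a laminin beta chain of epithelia, where it joins the alpha chain Lama3. It lies on chromosome 1 from 193207699 to 193343878 and was at 8.05 and 8.92 TPM in -LIF cells, 1.76 and 2.21 TPM in LIF cells, and 1.41 and 1.43 TPM in OSM cells. It was 4.28-fold lower in LIF cells (log2 change -1.67, standard error 0.12, adjusted p = 0.000133) and 5.98-fold lower in OSM cells (log2 change -1.97, adjusted p = 7.46e-05). Lama3 was at 1.31 to 1.67 TPM in all libraries, with adjusted p-values of 0.289 and 0.956. The ratio of Lamb3 to Lama3 within a library was 6.12 and 6.51 in -LIF cells, 1.05 and 1.43 in LIF cells, and 1.08 and 1.06 in OSM cells.

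Lama5, the laminin alpha chain that forms a trimer with Lamb1 and Lamc1 in most basement membranes and is used to coat dishes for pluripotent cells, was the most abundant laminin member. It was at 60.2 and 59.5 TPM in -LIF cells, 56.3 and 55.1 TPM in LIF cells, and 66.4 and 64.3 TPM in OSM cells. Its log2 change was -0.10 in LIF cells (adjusted p = 0.0560) and 0.12 in OSM cells (adjusted p = 0.0301), but -0.08 in OSM cells after the same rescaling, so no direction can be given for it. Lamb2, a beta chain of muscle, vessel and kidney laminins, was at 13.9 and 13.2 TPM in -LIF cells, 20.1 and 18.9 TPM in LIF cells, and 20.6 and 19.9 TPM in OSM cells (log2 change 0.49, adjusted p = 0.000888, and 0.55, adjusted p = 0.000593). Lama4, an alpha chain of vessel and mesenchymal laminins, was at 0.937 and 1.29 TPM in -LIF cells, 3.15 and 3.09 TPM in LIF cells, and 4.003 and 4.02 TPM in OSM cells. It passed the filter of 1 TPM only with libraries of the cytokine groups. The log2 change of Lama4 was 0.97 in LIF cells (adjusted p = 0.00109), just under the limit for a call (1.09 without -LIF replicate 2, 1.42 with a pseudocount of 0.1 and 1.39 with voom, each called), and 1.25 in OSM cells (adjusted p = 0.000414). Lama2, the alpha chain of muscle laminin, had 6 and 5 reads in -LIF cells, 70 and 67 reads in LIF cells, and 118 and 134 reads in OSM cells, and was not tested. The chains of the classical embryonic laminin, which were not among the members, had log2 changes in LIF cells and OSM cells of 2.81 and 2.00 for Lama1, 0.15 and 0.28 for Lamb1 and 1.06 and 0.98 for Lamc1, each with an adjusted p under 0.05. Beside these, 4 of 7 primitive and parietal endoderm markers tested were called higher in both cytokine groups, and the summed level of the 8 markers was 325 to 327 TPM in -LIF cells, 280.4 to 289 TPM in LIF cells and 328 to 342 TPM in OSM cells, most of it from Sparc. Their part was not tested.

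The nidogens, which bridge laminin and collagen networks, moved in opposite directions. Nid1 lies on chromosome 13 from 13437551 to 13512269 and was at 19.6 and 21.0 TPM in -LIF cells, 66.6 and 64.7 TPM in LIF cells, and 71.1 and 68.1 TPM in OSM cells. It was 3.23-fold higher in LIF cells (log2 change 1.65, adjusted p = 1.10e-05) and 3.43-fold higher in OSM cells (log2 change 1.73, adjusted p = 9.13e-06). Nid2 lies on chromosome 14 from 19751265 to 19811787 and was at 153 and 155 TPM in -LIF cells, 104 and 97.0 TPM in LIF cells, and 98.4 and 97.6 TPM in OSM cells. It fell by 0.61 on the log2 scale in LIF cells (adjusted p = 0.000130) and by 0.64 in OSM cells (adjusted p = 0.000106), short of a call. The ratio of Nid2 to Nid1 was 7.77 and 7.37 in -LIF cells, 1.56 and 1.50 in LIF cells, and 1.38 and 1.43 in OSM cells, so Nid2 remained the more abundant of the pair in every library. Rtraf, on the opposite strand, shares 8.4% of the exon bases of Nid2. It had mean levels of 213, 217 and 203 TPM in -LIF cells, LIF cells and OSM cells. How reads in this stretch were assigned is not given in the sources used here. Hspg2, the gene of perlecan, a heparan sulfate proteoglycan of basement membranes, was at 60.5 and 57.4 TPM in -LIF cells, 74.6 and 73.0 TPM in LIF cells, and 84.2 and 85.1 TPM in OSM cells (log2 change 0.32, adjusted p = 0.00122, and 0.52, adjusted p = 0.000201).

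The composition of the receptor and ligand mRNA is given as the share of summed TPM within a library, which does not depend on how libraries were scaled. The shares and the ratios were chosen after the values were seen and carry no test. The summed level of the 16 alpha chains differed little, with means of 184, 206 and 207 TPM in -LIF cells, LIF cells and OSM cells. Itga3 made up 47.9% and 48.7% of it in -LIF cells, 7.69% and 7.66% in LIF cells, and 7.07% and 7.75% in OSM cells. Itga5 made up 24.2% and 23.8% in -LIF cells, 48.6% and 49.1% in LIF cells, and 50.7% and 50.9% in OSM cells. The most abundant alpha chain was thus Itga3 in -LIF cells and Itga5 in both cytokine groups. Of the ligands, Fn1 made up 69.6% and 68.2% in -LIF cells, 22.6% and 22.2% in LIF cells, and 23.9% and 24.4% in OSM cells. Spp1 made up 29.6% and 31.2% in -LIF cells, 65.8% and 66.5% in LIF cells, and 61.0% and 60.4% in OSM cells. Tnc made up 0.731% and 0.616% in -LIF cells, 11.6% and 11.4% in LIF cells, and 15.1% and 15.2% in OSM cells. The leading ligand mRNA was Fn1 in -LIF cells and Spp1 in the others.

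**Figure D3:**
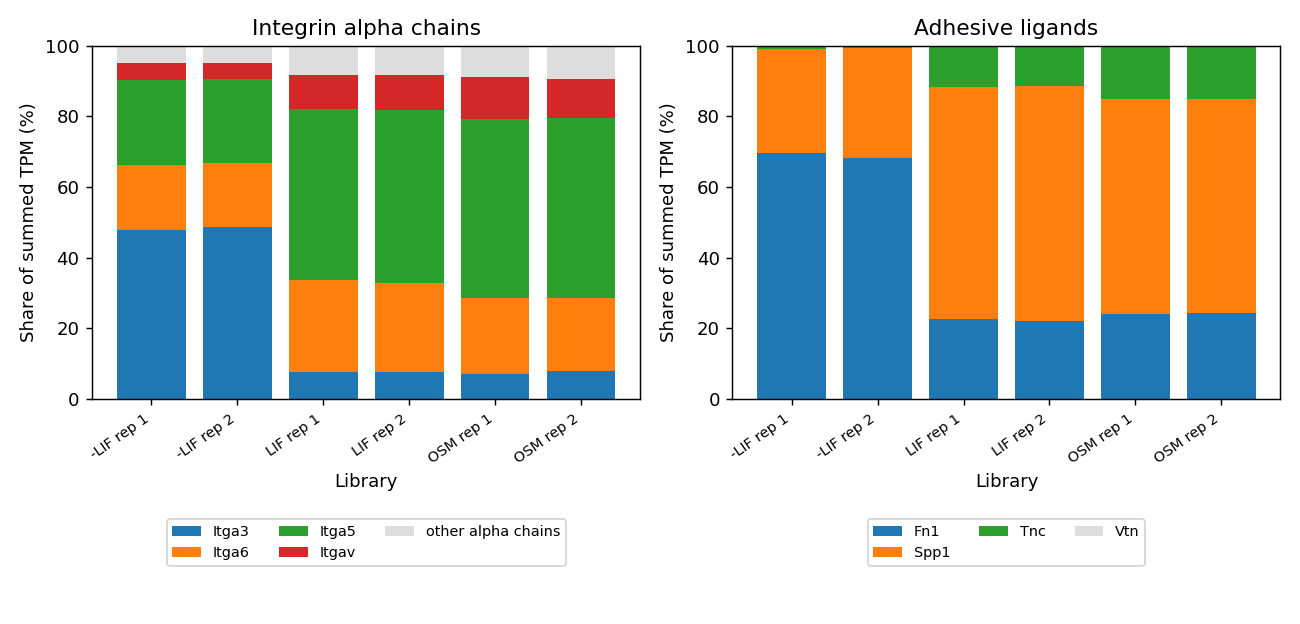
Share of the summed TPM (vertical axis, %) taken by each gene in each of the 6 libraries (horizontal axis), for the 16 integrin alpha chains (left) and the 4 adhesive ligands (right). In -LIF cells Itga3 and Fn1 hold the largest shares, and in LIF cells and OSM cells Itga5 and Spp1 do.

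Between OSM cells and LIF cells the differences of members were small in size. Of the 30 members tested, 0 were called in limma, against 0.0808% of all genes tested (0.0323% higher and 0.0485% lower). At such a share, 0 of 30 does not set the members apart from other genes. With the adjusted p alone as the criterion, 2 members were higher and 0 lower in OSM cells, against 0.463% and 0.129% of all genes tested (0.593% in all). These were Tnc, with a log2 change of 0.54 (1.45-fold, 95% interval 0.38 to 0.69, adjusted p = 0.0463), and Fn1, with 0.25 (1.19-fold, 95% interval 0.18 to 0.33, adjusted p = 0.0463). The values of both libraries of OSM cells lay above both of LIF cells for each gene. The same held for 15 of the 30 members tested, while 6 lay wholly below. The share of all genes was not counted, so these counts do not set the members apart from other genes. Tnc and Fn1 were picked by the same values, so their separation adds no support. With a pseudocount of 0.1 these adjusted p-values were 0.0758 for Tnc and 0.0556 for Fn1. With any 1 library left out they were 0.102 to 0.273 for Tnc and 0.128 to 0.273 for Fn1, while limma's voom on recovered reads gave 1.53e-12 and 1.54e-09. By the adjusted p alone, voom put 10 of the 30 members higher and 2 lower in OSM cells, and it called 0. The share of all genes by this criterion was not counted with voom. The fibroblast markers were also higher in OSM cells, with 13 of 13 log2 changes above 0, a median of 0.403 and 3 at an adjusted p under 0.05.

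At an unadjusted p under 0.05, 9 members were higher and 3 lower in OSM cells, against 9.80% and 5.50% of all genes tested (15.3% in all). The higher genes besides Tnc and Fn1 were Itga11, Itgav, Itgb1, Itgb3, Itgb5, Lama5 and Hspg2, with log2 changes from 0.20 for Hspg2 to 0.45 for Itga11 and adjusted p-values from 0.0826 for Lama5 to 0.220 for Itgb5. The lower genes were Itga6 (-0.25, adjusted p = 0.117), Lamb3 (-0.30, adjusted p = 0.326) and Itgb7 (-0.42, adjusted p = 0.263). For Spp1 the difference was 0.02 with a 95% interval of -0.09 to 0.13, for Itga5 0.07 (-0.02 to 0.16), for Itga3 -0.04 (-0.16 to 0.08) and for Nid1 0.08 (-0.04 to 0.21). Over the 30 members the 95% intervals of the difference lay between -0.79 and 0.76. A difference of 1 on the log2(TPM + 1) scale thus lay outside the interval of every member tested. This scale understates the change of genes with a low TPM, so for those a 2-fold difference in TPM is not excluded.

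**Figure D4:**
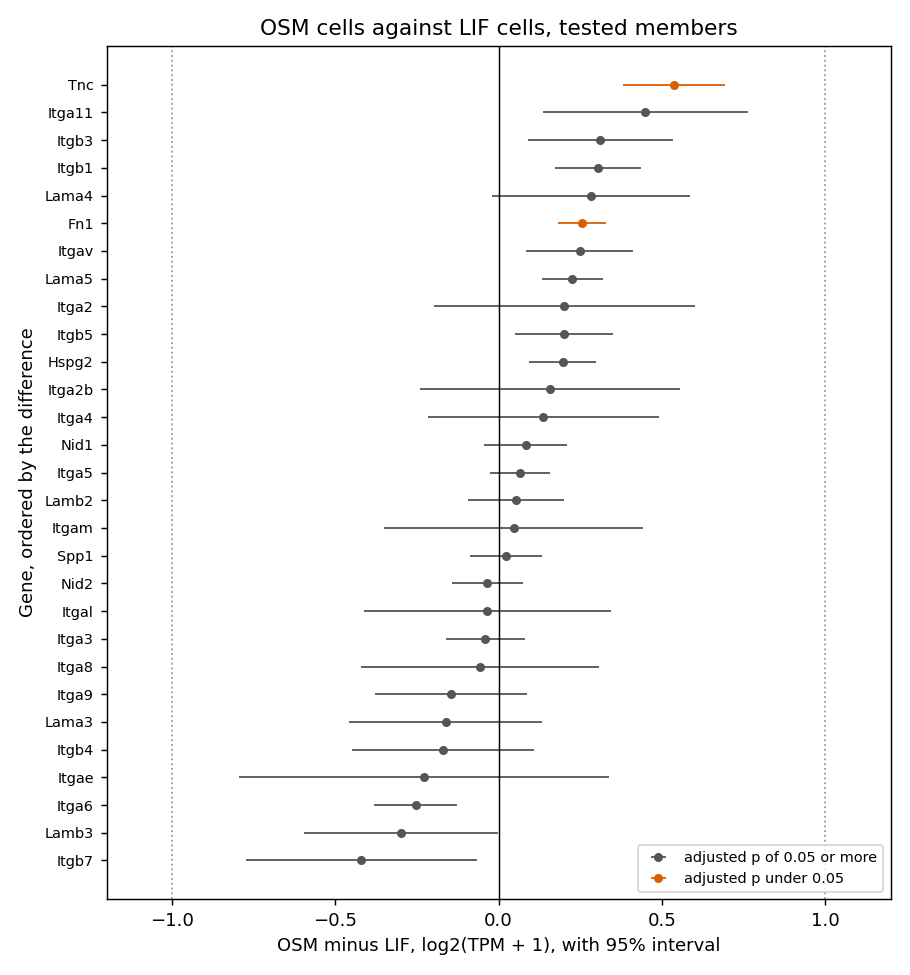
Difference between OSM cells and LIF cells for 29 tested members on the log2(TPM + 1) scale (horizontal axis), with bars for the 95% interval from limma and genes ordered by the difference. Tnc at 0.54 and Fn1 at 0.25 are the genes with an adjusted p under 0.05, and every interval lies within the dotted lines at -1 and 1.

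Inside the cell, integrins are coupled to actin by talins, kindlins, parvins, tensins and other proteins of the adhesion complex. Of 27 such genes tested, 2 were called higher and 4 lower in LIF cells, and 4 higher and 3 lower in OSM cells, beside 13.3% and 8.09% of all genes tested in LIF cells and 14.2% and 7.86% in OSM cells. Their median log2 changes were 0.082 and 0.329. The largest changes among those called were as follows. Tns4, a tensin of epithelial cells, had mean levels of 7.37, 0.128 and 0.225 TPM in -LIF cells, LIF cells and OSM cells (log2 change -2.89 and -2.78), while Tns3 had mean levels of 25.1, 72.8 and 76.9 TPM (1.50 and 1.58). Fermt1, the kindlin of epithelia, had mean levels of 4.69, 1.30 and 1.22 TPM (-1.31 and -1.37), and Parvb, a parvin, of 9.17, 39.0 and 28.0 TPM (1.98 and 1.51). Between OSM cells and LIF cells none of the 27 was called, and 3 passed by the adjusted p alone, beside 0.593% of all genes tested, namely Zyx (0.48, adjusted p = 0.0300) and Flna (0.37, adjusted p = 0.0297), which were higher in OSM cells, and Parvb (-0.46, adjusted p = 0.0408), which was lower. Of 10 matrix receptors that are not integrins, 3 were called higher and 2 lower in LIF cells, and 4 higher and 1 lower in OSM cells, beside the same shares of all genes. Cd44, a receptor for hyaluronan that also binds osteopontin, had mean levels of 5.59, 35.8 and 49.3 TPM (log2 change 2.48 and 2.93). Ddr2, a collagen receptor of mesenchymal cells, had mean levels of 0.616, 11.0 and 16.3 TPM (2.90 and 3.42). Its relative Ddr1, a collagen receptor of epithelia, had mean levels of 47.2, 16.8 and 19.3 TPM (-1.44 and -1.25). The syndecans Sdc3 and Sdc2 had log2 changes of 1.92 and 2.28 and of 0.98 and 1.33, and Sdc1 and Sdc4 of -1.06 and -0.81 and of -0.78 and -0.78.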

How the data were processed

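RNA-seq of mESCs was measured in 6 libraries, 2 per group. The authors prepared libraries from poly-T-selected mRNA, mapped trimmed reads with Hisat2 on mm10, assigned them to genes in featureCounts and deposited TPM values, in which counts are divided by gene length and scaled to the library. The annotation and the strand setting are not given in the sources used here, so reads of overlapping antisense genes cannot be told apart. The extraction text of the labels names another tissue, rOvaries, while the sample labels give embryonic stem cells.

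Whole reads were recovered from the TPM using exon lengths of GENCODE M21 (build GRCm38). Of the symbols, 28405 (99.4%) matched 1 gene there, and 95.4% of values came out whole within 0.02 of a read. A gene was tested if 2 or more libraries had at least 1 TPM. The test was limma 3.58.1 (R 4.3.3) on log2(TPM + 1), by lmFit and eBayes with a trend, with the 3 groups in 1 fit and Benjamini-Hochberg adjustment over 18556 genes. Residual degrees of freedom were 3, or 5.3 after moderation. The thresholds follow the methods of the study, whose DESeq2 test on counts was not run here. The replicates are biological per the figure legends of the study. The code was tested on simulated data.

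Alternatives were another pseudocount (0.1), other filters (none, or 5 TPM), a median-ratio rescaling, a replicate block, a fit restricted to the groups compared, voom on recovered reads, the adjusted p alone, and each library left out. Members, lists and tests were chosen with earlier results of these data known. Values are printed for members that were called and for others of each role group. For the pathway lists they are printed for a selection of genes. Some called genes are left out, such as Bcar1, called lower in both cytokine groups, and Vcl, called lower in LIF cells. Itgad, Itgax, Itgb6, Itgb2l and Lamc3 were not analysed here, and 1 tested member is counted but not reported here. Plots were drawn in Python 3.11.15 with matplotlib 3.10.9.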

Additional observations from a re-analysis of the deposited data

Results flagged for a closer look

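In the main test of OSM cells against LIF cells, 2 members had an adjusted p under 0.05. Tnc was higher in OSM cells by 0.537 and Fn1 by 0.255 on the log2(TPM + 1) scale, each with an adjusted p of 0.0463 in limma. With a pseudocount of 0.1 the limma adjusted p-values were 0.0758 for Tnc and 0.0556 for Fn1. The fibroblast markers were also higher in OSM cells. A difference in response cannot be told apart from a difference in cell content, which was not tested. Both OSM libraries lay above both LIF libraries for each gene, which adds no support, since the genes were picked by the same values. Groups of 2 libraries are too small for a search for libraries far from the others of their group.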

How the results depend on the processing

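With 2 libraries per group and 3 residual degrees of freedom, small differences are poorly resolved, and genes under 1 TPM rest on few reads. Same-numbered replicates deviated from their group means with correlations of -0.043, -0.023 and 0.027 across genes, so the numbers were not taken as pairs. With the replicate block the adjusted p between OSM cells and LIF cells was 0.134 for Tnc and 0.147 for Fn1, and in a fit of only these groups 0.088 and 0.121. No call of a member against -LIF cells changed with the block. The causes of the changes below were not tested.

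For members in LIF cells against -LIF cells, main counts of 9 higher and 2 lower became 5 higher after rescaling, 4 lower with voom, and 16 higher and 6 lower by the adjusted p alone. The share of all genes called after rescaling is not given here. In OSM cells against -LIF cells, 9 higher and 2 lower became 5 higher with the filter of 5 TPM, which tests fewer genes, 4 lower with voom, and 19 higher and 5 lower by the adjusted p alone. Between OSM cells and LIF cells, 0 higher became 2 by the adjusted p alone. With voom, the adjusted p alone gave 10 higher and 2 lower, and the share of all genes by this criterion was not counted.

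Over all genes, LIF cells had 2470 higher and 1502 lower, which became 996 lower with the filter of 5 TPM, 2314 lower with voom, and 7822 higher and 4809 lower by the adjusted p alone. OSM cells had 2630 higher and 1459 lower, which became 2333 lower with voom, and 7958 higher and 4722 lower by the adjusted p alone. Between OSM cells and LIF cells, 6 higher and 9 lower became 3 and 3 with a pseudocount of 0.1, 13 higher without a filter, 3 higher with the filter of 5 TPM, 0 and 0 with the replicate block, 0 and 0 in a fit of only these groups, 23 and 28 with voom, and 86 and 24 by the adjusted p alone. With 1 library left out these counts were 0 to 1 higher and 0 lower.

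Values of single members kept their direction and their side of the limits for a call in 346 cases in LIF cells, 349 in OSM cells and 357 between them, over all alternatives with a fitted value. A call was gained in 8 cases and lost in 5 in LIF cells, and gained in 6 and lost in 2 in OSM cells. Some alternatives, such as the replicate block or leaving out a library of the group not compared, could not alter the log2 change. The counts of cases kept therefore overstate how far the values were tried. Directions turned for small differences that were not called. In LIF cells against -LIF cells these were Itgal (0.015), at -0.078 after rescaling, -0.081 with voom and -0.064 to 0.094 with 1 library left out, Itgb4 (0.135), at -0.021 after rescaling, and Itgb1, at -0.055 to 0.054 with 1 library left out. In OSM cells against -LIF cells they were Lama5 (0.124), at -0.076 after rescaling and -0.008 with voom, and, with 1 library left out, Itgal at -0.113 to 0.075, Itgb3 at -0.106 to 0.029, Itgb4 at -0.162 to 0.094 and Lama3 at -0.025 to 0.009. Between OSM cells and LIF cells, with 1 library left out, Itga3 was at -0.084 to 0.003, Itga8 at -0.178 to 0.065, Itgal at -0.128 to 0.059, Itgam at -0.065 to 0.159, Spp1 at -0.014 to 0.058 and Nid2 at -0.083 to 0.015.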
